A study of Ciona robusta with 16 samples.

Results

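The genes described here were nearly silent from the unfertilized egg to the mid tailbud embryo of *Ciona robusta* and were expressed in the larva. They were found by a rule on TPM, a relative unit of transcript abundance that corrects a gene's reads for its length and for the depth of its library. A gene of the KY21 annotation was a member if its mean TPM over both replicates was below 2 at each of the 6 stages from unfE to midTII and if both larva libraries held at least 10 TPM. The rule found 122 members, here called the module, among 18388 KY21 genes, or 0.663%. They made up 1.58% of the 7718 KY21 genes with at least 10 TPM in both larva libraries. Members were thus chosen by their measured TPM at unfE, fertE, cell16, iniG, latN, midTII and in the larva, so their low level up to midTII and their high level in the larva are a description and not a finding. The libraries of late tailbud II were left free by the rule, and most of what follows turns on them.

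*Ciona* is a tunicate, a chordate whose egg gives rise within a day to a swimming tadpole with a tail, a notochord, a small brain with sensory organs and adhesive papillae at its front. Hatching releases the larva from the chorion, the coat of the egg, and it then swims without feeding until it settles and begins metamorphosis. Genes that start late in such an embryo commonly serve differentiated tissues such as the epidermis with its tunic, the nervous system, the mesenchyme and the adhesive organs.

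The data are poly(A)-selected, stranded RNA-seq of whole wild-type embryos at 8 stages with 2 replicates each. About 150 embryos were pooled for a library, so that no library stands for a single animal or a single tissue. The stages were the unfertilized egg (unfE, 0 h post fertilization, hpf), the fertilized egg (fertE, 0.4 hpf), the 16-cell stage (cell16, 2.65 hpf), the initial gastrula (iniG, 4.5 hpf), the late neurula (latN, 7.4 hpf), mid tailbud II (midTII, 10.9 hpf), late tailbud II (latTII, 13.5 hpf) and the larva (17.5 hpf). According to the study's methods, one replicate came from the fertilization that also supplied the proteomics and the other from a separate time course. The methods also name dechorionation of the eggs, so hatching marks a stage here and not a release from the coat. Libraries held 23.1 to 33.4 M estimated counts. Muscle marker genes summed to a TPM of 20.8 to 21.3 in unfE and 4767 to 4829 in the larva, and germline and maternal markers to 666 to 820 and 89.8 to 94.9. From latTII to the larva, epithelial and endodermal markers (6 genes) went from 7045 to 7478 up to 10402 to 11513. Neuronal markers (6 genes, from a list that also held the pigment gene TYR) went from 433 to 453 up to 545 to 594. A sum does not show which of its genes moved. Muscle markers (7 genes) went from 5725 to 6131 down to the larva values, germline and maternal markers (6 genes) from 116 to 131 likewise, and blood and immune markers (4 genes) from 78.0 to 84.3 down to 53.1 to 62.1. The part of these shifts in the members' levels was not tested. In whole embryos, more cells of a type and more RNA per cell cannot be told apart.

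Few members carry a name. The gene symbols used here come from protein tables of the study that were held only in part, and they cover 3826 KY21 genes, 20.8% of all. Among the 122 members only KY21.Chr2.827 had one, the human symbol PLA2G1B, a secreted phospholipase A2 that in humans is a digestive enzyme cutting fatty acids from phospholipids. Of the tailbud-onset genes defined below, 11 of 110 had a symbol, and of the neurula-onset genes 26 of 182. None of the 122 members fell into any of 8 lists of named genes, which covered secreted and matrix proteins, lectins with complement and immune genes, neuronal and sensory genes, proteases and their inhibitors, detoxification, solute transport, muscle and cilia, 259 genes in all. With so few symbols, this 0 says nothing about the functions of the members. The others are given by their KY21 identifiers, in which the chromosome is followed by a running number.

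As a group, the members were low at midTII in the deposited TPM, as the rule required, and higher at latTII. Their summed TPM was 114.4 and 96.0 in the midTII libraries, 1103 and 1277 in the latTII libraries and 4902 and 4799 in the larva libraries. The 3 stages did not overlap. As a share of all KY21 TPM, the members held 0.00327 ± 0.000211% of unfE (SD, n = 2), 0.0136 ± 0.00226% of midTII, 0.151 ± 0.00759% of latTII and 0.634 ± 0.00723% of larva TPM. Against the larva library of the same number, which is not taken as a pair, the summed latTII TPM was 22.5% in replicate 1 and 26.6% in replicate 2. Since the rule required a low midTII and a high larva level, neither the rise from midTII nor an order of the 2 steps is read from these values. Even at midTII, 50 members had at least 10 estimated counts in both libraries. The number of members with at least 2 TPM was 12 and 9 in the midTII libraries, 94 and 96 at latTII and 122 in the larva.

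**Figure D1:**
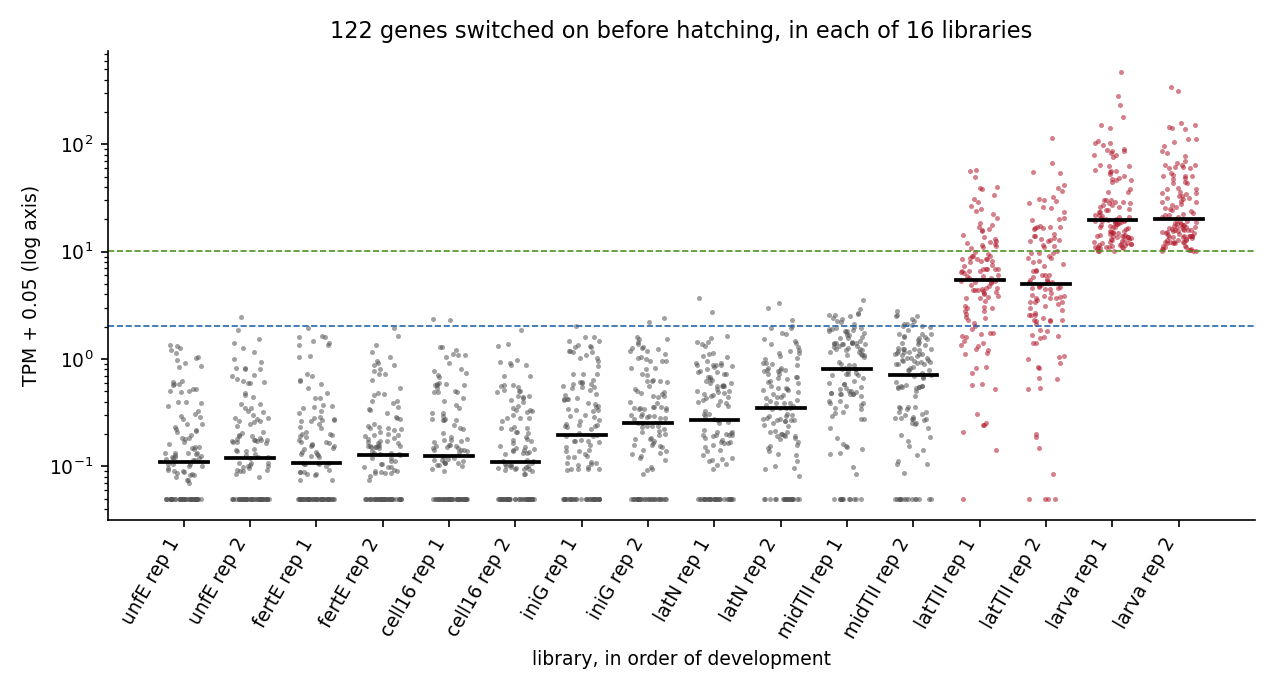
TPM + 0.05 (log axis) of the 122 members in each of the 16 libraries, in order of development; points are genes, black bars the median over members, the blue dashed line 2 TPM and the green dashed line 10 TPM, the limits of the rule. The red libraries of latTII, which the rule did not use, have medians of 5.44 and 4.97 TPM and lie between the midTII medians of 0.756 and 0.654 and the larva medians of 19.6 and 19.95.

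Before midTII the members left traces only. The mean over replicates was highest at midTII among the 6 early stages in 71 members, at latN in 24 and at iniG in 16, while unfE led in 4, fertE in 4 and cell16 in 3. In 57 members the mean rose from iniG to latN and again to midTII. Only KY21.Chr11.1075, singled out after its values were seen, had no count in any of the 8 libraries from unfE to iniG, and 40 members had 10 or more counts in one of them. Over all 6 early stages, midTII included, KY21.Chr10.730 had the highest mean, 1.94 TPM at latN. KY21.Chr2.596 followed with 1.93 at midTII and KY21.Chr4.338 with 1.91 at latN, all just inside the limit of 2. Just outside lay KY21.Chr14.230 at 2.01, KY21.Chr7.795 at 2.03 and KY21.Chr4.465 at 2.03. On the larva side, the lower library stood at 10.03 TPM in KY21.Chr11.231, at 10.07 in KY21.Chr14.748 and at 10.07 in KY21.Chr7.707. The nearest genes outside were KY21.Chr9.1126 with 9.96, KY21.Chr14.299 with 9.92 and KY21.Chr10.1141 with 9.86. Both limits thus run through a continuous range of values.

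In the larva the members spread over more than an order of magnitude of TPM. The median of the larva means was 20.1 TPM, with 10 members at 100 or more, 17 from 50 to 100, 34 from 20 to 50 and 61 below 20. None ranked among the most abundant larval mRNAs, and the best placed, KY21.Chr13.71, was number 270 of the KY21 genes by larva mean. The 5 highest members held 24.8% of the module's larva TPM and the 15 highest 45.5%. Between the larva replicates 102 members lay within 1.5-fold and 6 were over 2-fold apart. In the 80 members with more than 3 counts in both midTII libraries, the larva mean was a median of 24.9-fold above the midTII mean. The range was 7.31 to 283. Its top value, that of KY21.Chr13.71, rests on only 3.7 estimated counts in each midTII library.

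At latTII the members had come unequally far. The latTII mean reached 2 TPM in 99 of 122 members (81.1%) and 10 TPM in 38. Both latTII libraries held at least 2 TPM in 86 members and both stayed below 2 in 18, while in 18 the libraries lay on different sides of that limit. The latTII mean as a share of the larva mean had a median of 26.0% and quartiles of 9.29% and 47.7%. Dividing by the larva library of the same number gave a median of 25.04% in replicate 1 and 24.0% in replicate 2. The numbers were not taken to pair the stages, so this likeness is not replication. The 23 members with a latTII mean below 2 were still under this limit at latTII, and the sampled stages do not show when between 13.5 and 17.5 hpf they passed it. Of these 23, 19 had less than 10% of their larva level.

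Most members stood higher in the larva than at latTII, with a few exceptions. The higher latTII library lay below the lower larva library in 113 members, against a background of 26.8% of 14623 KY21 genes that did not overlap in this direction. In 1 member the libraries were apart the other way, beside 27.8% of those genes, and in 8 they overlapped. From midTII to latTII, 101 members had both later libraries above both earlier ones, beside 23.9% of the KY21 genes. In 21 members these libraries overlapped, and 28.6% of the KY21 genes were apart the other way. The rule used the larva and the midTII libraries, so the counts of 113 and 101 were bound to be high and are given as a description.

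By edgeR's quasi-likelihood test on the estimated counts, 48 of 122 members were higher at latTII than at midTII at an adjusted p under 0.05 and 0 were lower, beside 4.58% and 4.48% of the 14643 genes tested. From latTII to the larva 35 members were higher and 0 were lower, beside 3.27% and 5.18% of all genes. At an unadjusted p under 0.05, 0 members were lower in this second step as well, and DESeq2 and limma also called 0 lower. The counts of higher members depended on the tool. DESeq2 gave 72 in the first step and 54 in the second, limma on log2(TPM + 1) gave 87 and 89, and limma on log2(TPM + 0.1) gave 65 and 40. Of all genes they tested, DESeq2 called 6.91% and 5.43% higher. Limma called 7.10% and 6.15% higher on log2(TPM + 1), and 4.23% and 3.23% on log2(TPM + 0.1). In the second step the 3 settings called 6.63%, 6.09% and 4.29% of all genes lower. The median log2 change over the members was 2.86 in the first step and 1.98 in the second, against 0 and 0.03 over all genes tested. Each contrast has one stage that the rule used, so nothing is read from these counts. Leaving out a single library moved them by more than 1.5-fold. The first count fell to 28 if midTII replicate 1 was dropped, to 21 if midTII replicate 2 was, and to 29 if latTII replicate 2 was. The second became 23 or 13 when latTII replicate 1 or 2 was left out, and 18 or 11 when larva replicate 1 or 2 was. Sorted by both steps, 8 members passed in both, 40 in the first alone, 27 in the second alone and 47 in neither. Their median latTII shares of the larva level were 13.9%, 53.1%, 3.55% and 30.2%. The calls used the same latTII and larva levels as the share, so this order was largely built in. A gene that passed in one step alone was not shown to differ between the steps, since that difference was not tested.

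Around the module, named genes were called in both directions in these steps. Over all 14643 genes tested, 4.58% were called higher and 4.48% lower in the first step, and 3.27% and 5.18% in the second. With lists this small, counts near those shares are not read as a result. From midTII to latTII 13 of 40 genes for secreted and matrix proteins were higher and 2 lower, and 8 of 37 neuronal and sensory genes were higher and 0 lower. From latTII to the larva the same lists had 5 higher and 11 lower, and 5 higher and 3 lower. Of 16 muscle genes tested, 1 was higher and 1 lower in the first step and 8 were lower in the second. Cilium genes had 0 called of 30 in the first step and 1 lower in the second, and solute transport genes 0 of 38 and then 5 higher and 4 lower. The lists of lectins with complement and immune genes (32 tested), of proteases and inhibitors (26) and of detoxification (37) had 1 to 3 higher and 1 lower each in the first step. In the second they had 3, 1 and 5 higher and 2, 2 and 3 lower. These genes give the setting only, as none is a member.

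**Figure D2:**
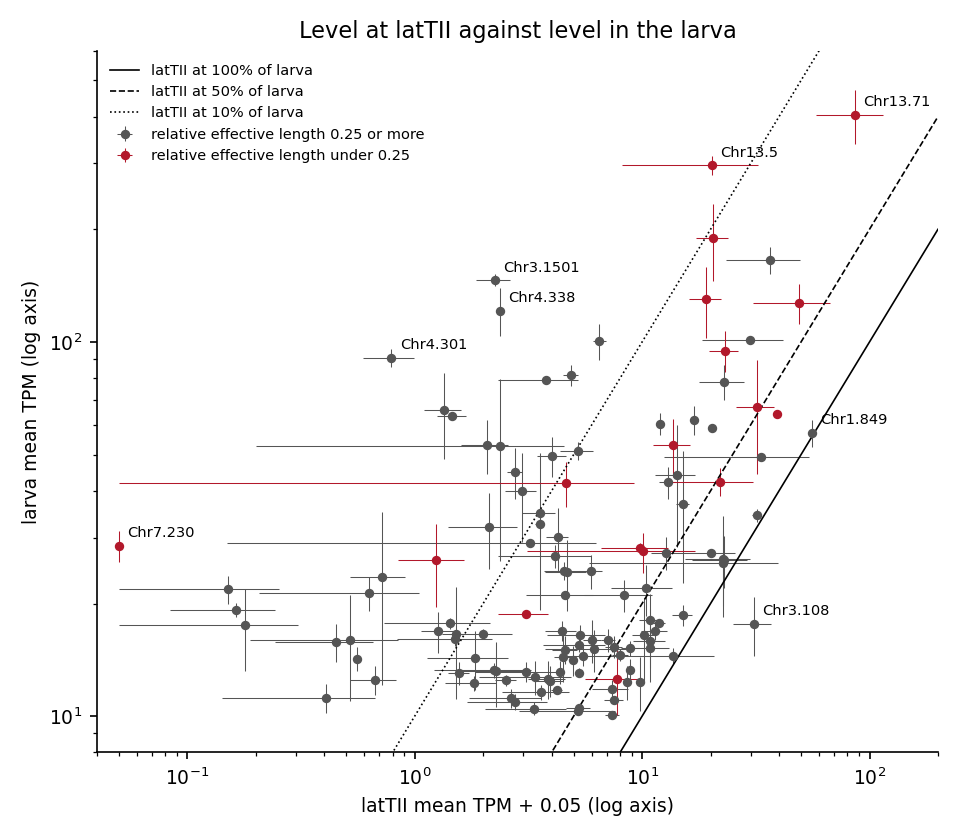
Larva mean TPM (log axis) against latTII mean TPM + 0.05 (log axis) for the 122 members; bars span the 2 libraries, lines mark a latTII level of 100%, 50% and 10% of the larva level, and red points are the 17 members with a relative effective length under 0.25. Members spread from KY21.Chr7.230, without a count at latTII, to KY21.Chr1.849 at 97.6% and KY21.Chr3.108 at 175% of the larva level.

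In a class of 31 members the latTII mean was under 10% of the larva mean. A low share is not a late start, and 12 of the 31 had a latTII mean of at least 2 TPM, up to 20.3 in KY21.Chr13.5. The sorting by share largely fixed that all 31 had latTII libraries below the larva libraries, beside 26.8% of KY21 genes. The latTII means of the 31 had a median of 1.39 TPM. The class held 33.3% of the module's larva TPM and 5.88% of its latTII TPM, a gap that the sorting largely fixed as well.

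KY21.Chr4.301 had 0.541 and 0.940 TPM at latTII and 85.9 and 95.8 TPM in the larva. On the TPM scale its larva mean was 123-fold above its latTII mean and 281-fold above its midTII mean, with 3155 and 3541 estimated counts behind the larva values. At midTII it had 0.418 and 0.229 TPM, just below its latTII libraries, so nearly all of its level was gained after latTII. Its iniG libraries, at 1.26 and 0.779 TPM, were no lower than those of latTII as a pair.

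KY21.Chr3.1501 had 2.16 and 1.20 TPM at midTII, 2.58 and 1.82 at latTII and 152 and 141 in the larva. The midTII and latTII libraries overlapped, and the larva libraries stood apart from both. Its larva mean was 66.6-fold above the latTII mean.

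KY21.Chr4.338 had 1.04 and 1.44 TPM at midTII, 2.36 and 2.26 at latTII and 103 and 139 in the larva, on 4703 and 6366 counts in the larva. Here the 3 stages did not overlap, but latN replicate 2, at 2.92 TPM, lay above both latTII libraries. The gene's log2 change from midTII to latTII, 0.95 (standard error 0.41), did not pass the test. It also had one of the highest early traces, with means of 1.15 TPM at cell16 and 1.91 TPM at latN, so its late rise began from a low but measurable level.

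PLA2G1B (KY21.Chr2.827) belonged to the same class. It had 0.454 and 0.509 TPM at midTII, 1.05 and 1.55 at latTII and 82.7 and 48.6 in the larva. The latTII libraries held only 10.2 and 16.6 counts of it, against 759 and 449 in the larva. Its mean rose 50.5-fold between these stages, and the larva replicates differed by more than those of KY21.Chr4.301.

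KY21.Chr11.1038 and KY21.Chr11.375 also belonged to this class. The first had 1.20 and 1.62 TPM at latTII and 63.3 and 63.8 in the larva. The second had 2.28 and 5.15 at latTII and 79.9 and 78.6 in the larva. Neither reached 10% of its larva level in either latTII library.

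Among its lower genes, chosen after their values were seen, KY21.Chr7.230 had no count in either midTII or latTII library, which allows up to 3 counts in each. In the larva it had 25.8 and 31.3 TPM on 111 and 135 counts. KY21.Chr3.1584 had 3.1 and 0 counts at latTII and 289 and 347 in the larva, or 19.9 and 23.7 TPM. KY21.Chr8.218, a member on a long row of the annotation, had 0.775 and 0.470 TPM at latTII and 11.4 and 13.6 in the larva. Its 120 and 80.7 counts at latTII show that a low latTII level was not confined to genes with few reads.

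At the other end, 27 members had at least 50% of their larva level at latTII. The rule and the sorting largely fixed that all 27 had both latTII libraries above both midTII libraries, beside 23.9% of KY21 genes. The larva means of the 27 ran from 10.10 to 64.2 TPM, so none of the members above 100 TPM was among them. They held 12.7% of the module's larva TPM and 39.4% of its latTII TPM, which the sorting largely fixed too.

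KY21.Chr1.849 was the clearest case, with 1.37 and 1.81 TPM at midTII, 56.9 and 54.7 at latTII and 52.4 and 61.9 in the larva. The latTII and larva libraries overlapped. It had the largest counts of any member, 10552 and 11243 at latTII and 9225 and 10960 in the larva, or 11.6% of all counts of members in the larva. Its log2 change was 5.18 (standard error 0.28) in the first step and 0.08 (standard error 0.23) in the second.

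KY21.Chr1.847, whose number is close to that of KY21.Chr1.849, had the same course at a lower level, with 33.3 and 30.5 TPM at latTII and 35.8 and 32.9 in the larva. It was picked for this likeness. Both genes had overlapping latTII and larva libraries.

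KY21.Chr3.108 was the one member whose libraries were apart in the other direction. It had 1.32 and 0.744 TPM at midTII, 24.99 and 36.8 at latTII and 20.8 and 14.5 in the larva. Its latTII mean was 175% of the larva mean, but the log2 change of -0.77 (standard error 0.81) did not pass the test.

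The 5 members with the highest latTII share among those with a larva mean of at least 50 TPM included only KY21.Chr1.849 above 90%. KY21.Chr13.7 followed at 61.3%, KY21.Chr13.186 at 47.8%, KY21.Chr8.902 at 38.3% and KY21.Chr2.793 at 34.4%. KY21.Chr2.793 replicated closely, with 20.5 and 20.1 TPM at latTII and 57.8 and 60.2 in the larva. KY21.Chr8.902 did not, with 30.6 and 67.0 at latTII and 143 and 112 in the larva.

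Between these ends lay 28 members at 10% to 25% and 36 at 25% to 50% of the larva level. The highest larva mean of all was found here, in KY21.Chr13.71. It had 1.5 and 1.35 TPM at midTII, 58.0 and 115 at latTII and 471 and 339 in the larva. The 3 stages did not overlap, and the gene passed in both steps. KY21.Chr10.730 also passed in both, with 1.17 and 1.04, then 49.2 and 23.3, then 179 and 152 TPM. So did KY21.Chr1.1991, with 18.3 and 41.5 TPM at latTII and 98.7 and 104 in the larva.

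The latTII share was also computed in genes that started earlier and were still on in the larva. Tailbud-onset genes had means below 2 TPM from unfE to latN and at least 10 TPM in both midTII and both larva libraries, and neurula-onset genes had means below 2 up to iniG and at least 10 TPM in both latN and both larva libraries. The definitions used midTII or latN and the larva, so a lower latTII share in the members was largely fixed by the choice of genes, and the values are a description only. The latTII mean was a median of 26.0% of the larva mean in the 122 members, 84.3% in the 110 tailbud-onset genes and 127% in the 182 neurula-onset genes. At least 100% was reached by 1 member, by 44 tailbud-onset genes (40%) and by 122 neurula-onset genes (67.0%). From latTII to the larva, edgeR called 15 tailbud-onset genes higher and 6 lower, and 8 neurula-onset genes higher and 30 lower. Of all genes tested, 3.27% were called higher and 5.18% lower. The 6 and the 8 lie near those shares and are not read as a result. The genes of a group share the same 4 libraries and are no replicates of a condition, so the groups were not tested against each other.

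**Figure D3:**
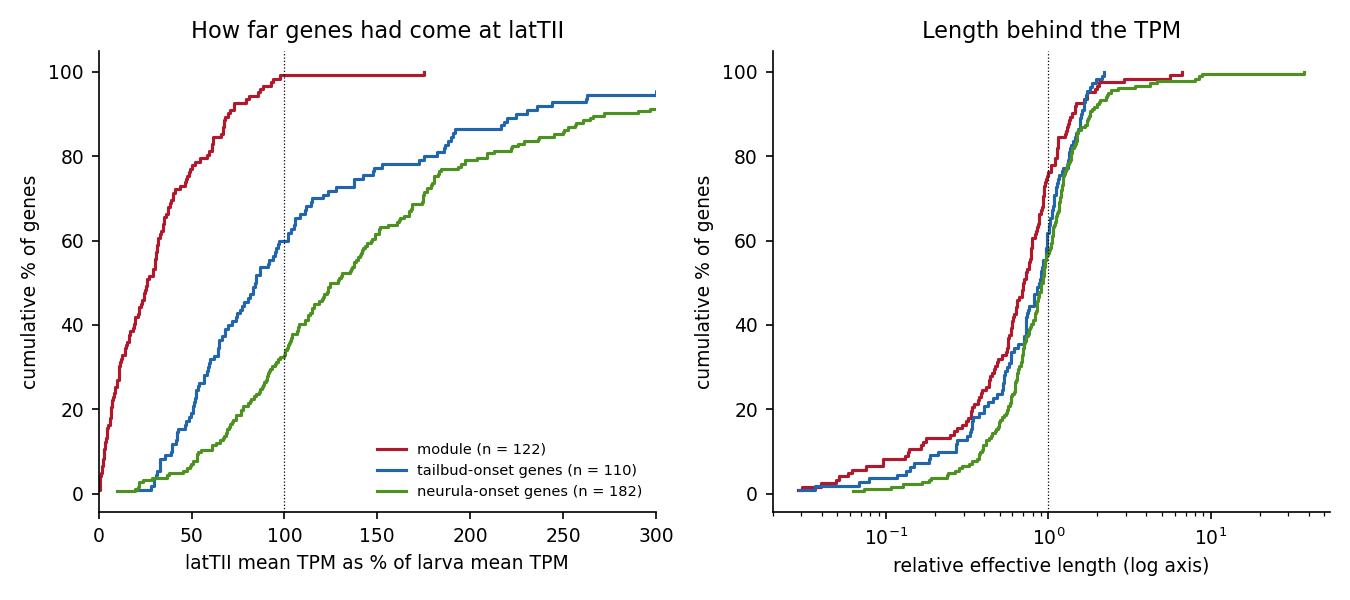
Cumulative percent of genes against the latTII mean TPM as a percent of the larva mean TPM (left, cut at 300%) and against the relative effective length (right, log axis) for the 122 members (red), 110 tailbud-onset genes (blue) and 182 neurula-onset genes (green). The medians of the members, tailbud-onset and neurula-onset genes were 26.0%, 84.3% and 127% on the left, where the choice of genes largely fixes the order, and 0.705, 0.881 and 0.913 on the right.

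The members stood on short rows of the annotation, a feature the rule did not use as such. The relative effective length is the estimated count divided by the TPM, scaled to 1 for the median of the detected genes. Its median was 0.705 in the members, with quartiles of 0.417 and 0.973, against 1.04 over the 8124 KY21 genes with a larva mean of at least 10 TPM. It was under 1 in 93 members (76.2%), against 47.6% of those genes, 61.8% of the tailbud-onset genes and 57.1% of the neurula-onset genes. An effective length under 0.25 was found for 17 members (13.9%), against 4.63% of the KY21 genes with that larva level, 10.0% of the tailbud-onset and 4.95% of the neurula-onset genes.

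These 17 rows weigh heavily in TPM and little in reads. They held 34.1% of the module's larva TPM but 4.34% of its larva counts. Of the 10 members with at least 100 TPM in the larva, 5 were among them, KY21.Chr13.71 with the highest larva mean included. Their larva means had a median of 53.0 TPM on 122 counts, while the other members had a median of 17.5 TPM on 403 counts. KY21.Chr13.5 is an example, with 8.15 and 32.4 TPM at latTII and 279 and 313 in the larva on 374 and 423 counts. KY21.Chr13.7 had 39.7 and 38.9 TPM at latTII and 63.7 and 64.7 in the larva, which came from 33.5 and 36.4 and from 51.0 and 52.1 counts. KY21.Chr1.641, at 23.8 and 17.2 TPM and then 234 and 145, was of the same kind. The part of the short length in these levels was not tested. Left out, the 17 rows lowered the module's share of larva TPM to 0.418%, while the median latTII share of the larva level was 27.2% and 84 of 105 members reached 2 TPM at latTII.

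Of these 17 short rows 6 carry identifiers of chromosome 13, on which 9 of 495 KY21 genes (1.82%) were members. That was the highest share of any chromosome. The lowest was that of chromosome 5, with 1 member of 1133 genes (0.0883%). Among the 220 genes of chromosome 13 with a larva mean of at least 10 TPM, 7.73% had an effective length under 0.25.

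Replicates at latTII differed more in the members than over all detected genes, and about as much as in genes of a like level. The absolute log2 ratio between the latTII libraries had a median of 0.54 in the members and 0.34 in the 11795 KY21 genes with a latTII mean of at least 2 TPM. In 32 members (26.2%) the libraries were over 2-fold apart, against 11.9% of those genes. Among members with a latTII mean of at least 2 TPM, the median was 0.48 and 22 (22.2%) were over 2-fold apart. Between 2 and 20 TPM at latTII, 18.8% of 80 members and 18.3% of 6042 KY21 genes were over 2-fold apart. The signed ratio had a median of 0.03, with 59 members higher in replicate 1 and 62 in replicate 2, so neither latTII library was ahead of the other across the module.

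A few genes were far apart at latTII, not all of them on ample reads. KY21.Chr1.1026 had 39.5 and 5.80 TPM at latTII on 757 and 123 counts, and 19.7 and 31.5 in the larva. Against the larva library of the same number, its latTII share was 201% in replicate 1 and 18.4% in replicate 2. Its place among members with a high latTII share thus rests on 1 library. KY21.Chr12.140 differed the other way, with 12.4 and 54.2 TPM at latTII and 48.0 and 50.5 in the larva. KY21.Chr1.287 had 6.44 and 20.7 at latTII and 15.2 and 13.8 in the larva. KY21.Chr13.158, a short row with a relative effective length of 0.131, had 3.07 and 17.0 at latTII and 24.2 and 30.9 in the larva. KY21.Chr4.343, picked after its values were seen, was apart at both stages in the same direction, with 4.51 and 0.151 TPM at latTII and 79.8 and 25.9 in the larva. Its latTII libraries held 80.1 and 3 counts.

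Members with adjacent numbers in their identifiers formed 5 pairs, which hold 10 of the 122 members (8.20%). In tailbud-onset genes the share was 5.45% and in neurula-onset genes 9.89%. Whether the numbers follow position on the chromosome was not given in the sources used here, and near-identical copies, if a pair were such, could share reads. KY21.Chr7.369 and KY21.Chr7.370 ran together. The first had 0.677 and 0.688 TPM at midTII, 5.19 and 4.43 at latTII and 76.2 and 87.0 in the larva. The second had 0.0958 and 0, then 6.88 and 6.01, then 89.7 and 112 TPM. Both passed in both steps, and their latTII shares of the larva level were 5.90% and 6.41%.

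KY21.Chr12.693 and KY21.Chr12.694 did not run together. KY21.Chr12.693 had 0.193 and 0.0341 TPM at latTII and 20.1 and 18.4 in the larva. KY21.Chr12.694 already had 11.8 and 14.0 TPM at latTII and reached 46.4 and 38.1. The latTII shares were 0.590% and 30.5%. KY21.Chr6.169 and KY21.Chr6.170 were likewise split, at 3.55% and 29.2%, with 0.522 and 0.489 against 17.7 and 28.1 TPM at latTII.

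The remaining pairs gave less to compare. KY21.Chr1.1025 had 14.3 and 25.6 TPM at latTII and 27.0 and 27.6 in the larva, and its partner KY21.Chr1.1026 was the gene whose latTII libraries disagreed. KY21.Chr4.130 had 6.51 and 5.45 TPM at latTII and 18.1 and 13.9 in the larva. KY21.Chr4.131 rested on 7.3 and 0 counts at latTII and 27.2 and 36.1 in the larva, too few to place it.

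**Figure D4:**
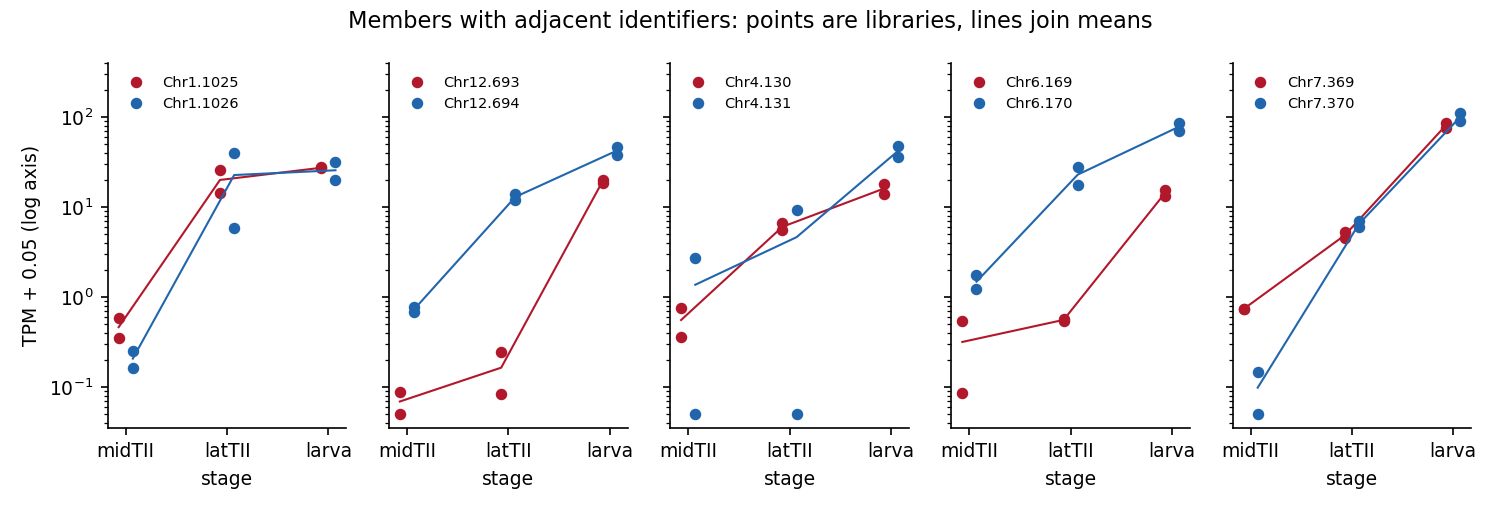
TPM + 0.05 (log axis) at midTII, latTII and in the larva for the 5 pairs of members with adjacent identifiers; points are libraries and lines join the stage means. Chr7.369 and Chr7.370 ran side by side with latTII shares of 5.90% and 6.41%, while Chr12.693 at 0.590% lay far below Chr12.694 at 30.5% at latTII.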

How the data were processed

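Estimated counts were made by the authors with Salmon on the KY21 transcriptome after FastQC and Trim Galore, summed per gene and deposited to 1 decimal. TPM values were deposited by the authors as well, in a table of 18424 rows that includes 36 ENSCING rows. These rows were left out of the module and of shares. A deposited table of counts scaled with DESeq2 was not used here. Groups were taken from the sample titles. The members and the gene lists were chosen with earlier results of these data known.

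Counts were rounded to whole numbers and fitted with edgeR 4.0.16 (quasi-likelihood F-test, TMM factors, filterByExpr by stage, a term per stage over all 16 libraries, Benjamini-Hochberg adjustment over all genes tested), in R 4.3.3. DESeq2 1.42.0 and limma 3.58.1 on log2(TPM + 1) were alternatives, and the test was checked on simulated counts. Replicate ratios used a pseudocount of 0.1 TPM. With 2 libraries a stage, p-values measure only the spread between these pools of embryos. No exact test of 2 against 2 libraries can reach an unadjusted p of 0.05.

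Named members were the 15 highest in the larva, every member with a symbol, the 5 highest and 5 lowest latTII shares at a larva mean of at least 50 TPM, the 5 largest latTII replicate ratios among genes with at least 10 TPM in 1 latTII library, those nearest the limits, and members with adjacent identifiers. Others are said to have been picked after their values were seen. No sequences are shown, since the reference used here has no KY21 identifiers.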

Additional observations from a re-analysis of the deposited data

How the results depend on the processing

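The rule decides the numbers. With early means below 1 TPM it gave 54 genes, of which 41 were detected at latTII, with a median latTII share of the larva level of 23.2% and 0.176% of larva TPM. Below 5 TPM these values were 300 (the cap; 307 without it), 271, 35.2% and 1.87%. With larva libraries at 5 TPM or more they were 259, 189, 32.8% and 0.782%, and at 20 or more 51, 47, 19.7% and 0.487%. With each early library below 2 TPM the median share was 27.2% and the larva TPM 0.42%. TPM rescaled without the ENSCING rows gave 127 genes, 98 of them shared, and 0.517%. Counts on TMM-scaled library sizes gave a median of 25.3%. When the 17 shortest rows were dropped, a choice made after the data had been seen, the median was 27.2% and the larva TPM 0.418%. The replicate ratio was 0.0067 (log2) over members with a latTII mean of at least 2 TPM, and identifiers up to 3 apart joined 16 members in place of 10. From midTII to latTII limma on log2(TPM + 1) called 87 members, and 65 with a pseudocount of 0.1. The shares over all genes were 7.10% and 4.23%. From latTII to the larva DESeq2 called 54, limma on log2(TPM + 1) 89, limma on log2(TPM + 0.1) 40 and a fit on the 4 libraries of these stages 72. Here the shares over all genes were 5.43%, 6.15%, 3.23% and 4.12%. Leaving out 1 library at a time, the rule gave 120 to 170 genes, 94 to 135 detected at latTII, a median share of 23.2% to 30.3% and 0.556% to 0.724% of larva TPM. The calls were then 21 to 53 and 11 to 36, with 0 lower. Library totals in place of TMM moved the median change of all genes from latTII to the larva to 0.15 (log2). With a replicate block the counts of calls were 53 and 38, beside 4.87% and 3.67% of all genes. Deviations of same-numbered libraries correlated at 0.01 between midTII and latTII and at 0.19 between latTII and the larva, so the numbers were not taken to pair the samples of these stages. Elsewhere they correlated at 0.69 to 0.74 among unfE, fertE and cell16 and at 0.57 between iniG and latN, which the fit over all libraries does not model. The causes of these shifts were not tested. Of 216 values of single genes under other settings, 198 moved by less than the spread between replicates and 18 by more. Most of these settings left out 1 latTII or larva replicate, so the shift was judged against the very difference it comes from. The 198 thus do not show that the values hold. KY21.Chr1.1026, at 88.5%, went to 22.6% or 154% without latTII replicate 1 or 2 and counts among the 198. Depth limits members such as KY21.Chr4.131, with at most 36.1 counts in a library of the larva.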
